A study of Homo sapiens with 9 samples.

Results

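Transcripts of 32 genes for glucose uptake, glycolysis, lactate handling and the pentose phosphate pathway were measured in THP-1 cells after knockdown of the transcription factor NFATC2. The genes were chosen by symbol as members of these pathways. All 32 were found by symbol in the deposited tables, and all 32 passed the filter on low counts, among 14975 genes tested and 58735 gene identifiers counted.

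THP-1 cells are a monocytic human cell line from acute myeloid leukaemia with the MLL-AF9 fusion. The 9 RNA-seq libraries fell into 3 groups of 3: cells with a non-targeting control shRNA, cells with NFATC2 shRNA-143 (the first knockdown construct) and cells with NFATC2 shRNA-146 (the second). Every group, the control included, was spinoculated with lentivirus made in 293T cells, placed under puromycin from 24 hours, and collected for polyadenylated RNA at 48 hours. The promoter that drives the shRNAs was not given in the sources used here. No label says that replicates were separate cultures, so p-values reflect the spread among these libraries alone, and that spread may be technical. Because the RNA came from bulk cultures, fewer cells expressing a gene and less of its RNA per cell cannot be told apart.

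Glucose enters blood cells through facilitative transporters of the SLC2A (GLUT) family and is trapped by hexokinase as glucose 6-phosphate. Glycolysis then converts it to pyruvate, with phosphofructokinase as the main controlled step, and lactate dehydrogenase turns pyruvate into lactate, which leaves through monocarboxylate transporters of the SLC16A family. The pentose phosphate pathway branches off at glucose 6-phosphate, where its oxidative arm gives NADPH and its non-oxidative arm gives ribose 5-phosphate for nucleotides. Leukaemia cells, like activated lymphocytes, are known for high use of glucose.

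The libraries held 40047459 to 44669709 counts, and 18485 to 21723 genes had a count. NFATC2, the targeted gene, stood at 12.7, 27.6 and 27.4 CPM (counts per 1000000, after TMM scaling) in control replicates 1, 2 and 3. It stood at 1.49, 7.40 and 6.95 CPM in the shRNA-143 libraries and at 2.59, 6.71 and 9.43 CPM in the shRNA-146 libraries, all below the control, as the labels say. Libraries with the same replicate number deviated from their group means together, with correlations across genes of 0.252 to 0.758 in 9 pairs, against -0.678 to 0.535 in the 18 pairs of different numbers. Deviations cancel within a group, so high values at the same number lower those at different numbers. The replicate 3 libraries of shRNA-143 and shRNA-146 correlated more with control replicate 2 (0.450 and 0.520) than with control replicate 3 (0.329 and 0.252). Replicate 1 of shRNA-146 stood apart: it had the fewest genes with a count, and calls depended on it, as they did on other libraries. Each result is therefore given from a fit without the replicate number and from one that has it as a block. Both used edgeR's quasi-likelihood test and Benjamini-Hochberg adjustment over all tested genes at 0.05. The calls of members and of named list genes without shRNA-146 replicate 1 are stated too. Leaving out that library raised the calls with the block, and leaving out others lowered them. Without control replicate 2, that fit called 58 genes with shRNA-143 and 27 with shRNA-146, against 474 and 662 over all 9 libraries. NFATC2 itself passed with the block for shRNA-143 (log2 fold change -2.27, adjusted p = 0.00168) and shRNA-146 (-1.96, adjusted p = 0.00435). Without the block NFATC2 did not pass (-2.09, adjusted p = 0.497, and -1.85, adjusted p = 0.464). Of 10 monocytic markers, 9 averaged at least 1 CPM in each group (CD68 did not), and their summed level was 920 to 1043 CPM in control, 1012 to 1176 for shRNA-143 and 741 to 1170 CPM for shRNA-146. The T cell markers CD2, CD3D and CD3E and the erythroid marker ALAS2 had no count in any library.

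SLC2A1 and RPIA were the members that passed in the edgeR fit with the block over all 9 libraries, each with a different shRNA. SLC2A1, the main glucose transporter of most blood cells, fell to 54.8% of the control level with shRNA-143 (log2 fold change -0.87 ± 0.12, SE, adjusted p = 0.00516). RPIA, which makes ribose 5-phosphate in the pentose phosphate pathway, fell to 57.0% of the control level with shRNA-146 (-0.81 ± 0.14, adjusted p = 0.0123). Without the block neither passed by edgeR over all 9 libraries (adjusted p = 0.150 and 0.448), although the fold changes were -0.87 and -0.80.

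These counts were close to those of all genes. With shRNA-143 and the block, 1 of 32 members was called lower and 0 higher, where 1.57% of tested genes were lower and 1.6% higher. With shRNA-146 and the block, 1 of 32 was called lower and 0 higher, where 1.96% of tested genes were lower and 2.46% higher. In the mean of both shRNAs against control with the block, 2 of 32 were called lower (SLC2A1 and RPIA) and 0 higher, against 2.75% and 2.98% of tested genes. A single member is 3.13% of the 32, so these shares lie near the background. DESeq2 with the block called 1 member with shRNA-143 (SLC2A1), 4 with shRNA-146 (PFKP, RPIA, PFKFB3 and ALDOC) and 3 in the mean (SLC2A1, RPIA and PFKFB3), among 1001, 1400 and 1642 genes called in all.

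Without the block, 0 of 32 members passed by edgeR in any comparison over all 9 libraries or with 1 library left out. Over all 9, 0.0467% of all genes passed with shRNA-143, 0.0334% with shRNA-146 and 0.0334% in the mean of both. At an unadjusted p under 0.05, that edgeR fit held 1 member with shRNA-143 (3.13%, against 6.80% of all genes), 2 with shRNA-146 (6.25% against 8.81%) and 2 in the mean (6.25% against 9.34%). On replicates 2 and 3 alone, edgeR without the block called SLC2A1 with shRNA-143, and SLC16A1, PFKP, RPIA, PFKFB3 and ALDOC with shRNA-146. In the mean that fit called LDHA, SLC16A1, SLC2A1, RPIA and PFKFB3. Over the 15155 genes tested in it, the calls were 589, 951 and 1525. DESeq2 without the block called 1 member with shRNA-143, 0 with shRNA-146 and 1 in the mean, among 151, 162 and 203 genes called in all, and SLC2A1 was the member called each time. In the authors' deposited tables, SLC2A1 was also the 1 member of 32 with an adjusted p under 0.05 with shRNA-143 (log2 fold change -0.85, adjusted p = 0.00427), and 0 of 32 were under it with shRNA-146.

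Between the shRNAs, 0 of 32 members differed by edgeR over all 9 libraries with the block, where 1.2% of genes did, and 0 without it, where 0.0467% did. At an unadjusted p under 0.05 the edgeR fit with the block held 6 members (18.8%, against 10.4% of all genes) and the fit without it 1 (3.13% against 3.75%). DESeq2 called 0 members without the block, among 89 genes. With the block DESeq2 called 3, among 374 genes: SLC2A1 (adjusted p = 0.04135), RPIA (adjusted p = 0.01165) and ALDOC. The edgeR fit with the block but without shRNA-146 replicate 1 called SLC2A1 and RPIA too (adjusted p = 0.0455 and 0.0190). Whether these genes differed between the shRNAs past the threshold thus changed with the tool, the block and that library. Both shRNAs are compared with the same 3 control libraries, so agreement between their columns of fold changes is not independent evidence.

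Most members lay slightly below the control. In the fit with the block, 22 of 32 fold changes with shRNA-143 and 21 of 32 with shRNA-146 were negative, with medians of -0.05 and -0.11 on the log2 scale. Over all tested genes, 49.5% and 47.7% were negative, and the medians were 0.00 and 0.02. Scaling by library size alone raised the median of all genes in the mean of both shRNAs to 0.12. The member median then became 0.02, with 15 members negative and 17 positive, which was again below the median of all genes. At an unadjusted p under 0.05, 21.9% of members with shRNA-143 and 28.1% with shRNA-146 stood out in that edgeR fit, near the 20.7% and 23.5% of all genes.

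**Figure D1:**
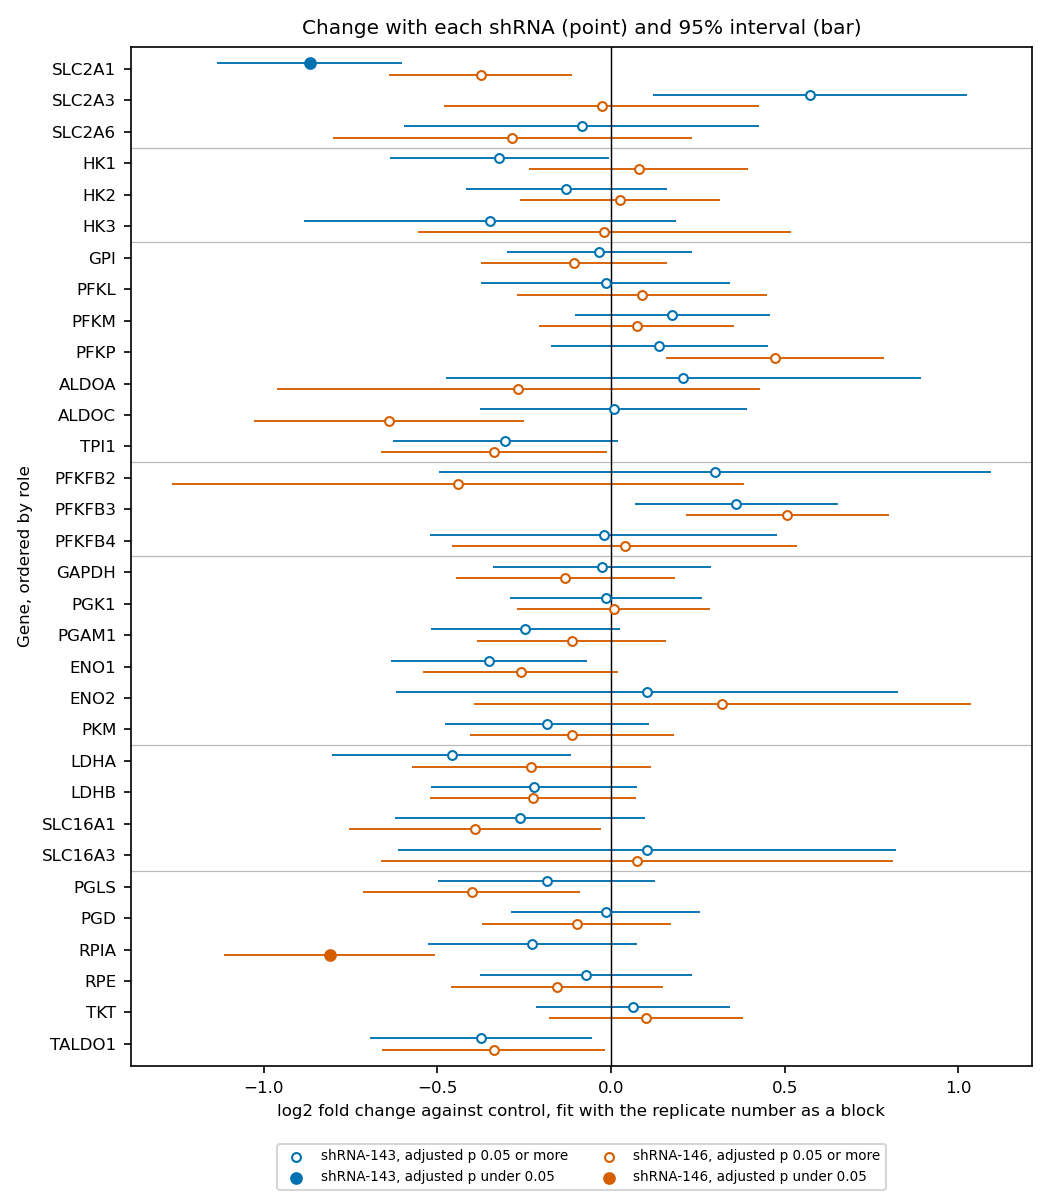
Points show the log2 fold change of each of the 32 genes against control for shRNA-143 and shRNA-146 in the fit blocked on replicate number, and bars show the 95% interval. SLC2A1 with shRNA-143 (-0.87) and RPIA with shRNA-146 (-0.81) passed the threshold, and most other intervals cross 0.

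The levels themselves spanned a wide range. On a per-length scale (CPM per kilobase of deposited gene length, mean of the control libraries), GAPDH was highest at 1334 ± 50.3 (SD, n = 3), at percentile 99.7 of tested genes. ENO1 followed at 532, TPI1 at 513, PGAM1 at 363, PKM at 234 and LDHA at 194. These levels ran down to ENO2 at 0.226 and PFKFB2 at 0.0879, the latter at percentile 7.17. The 32 members together took 1.53% to 1.60% of the counts of a control library, 1.46% to 1.52% with shRNA-143 and 1.53% to 1.62% with shRNA-146. GAPDH, ENO1, PKM, TPI1, LDHA and PGAM1 held 68.8% to 75.5% of those counts.

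**Figure D2:**
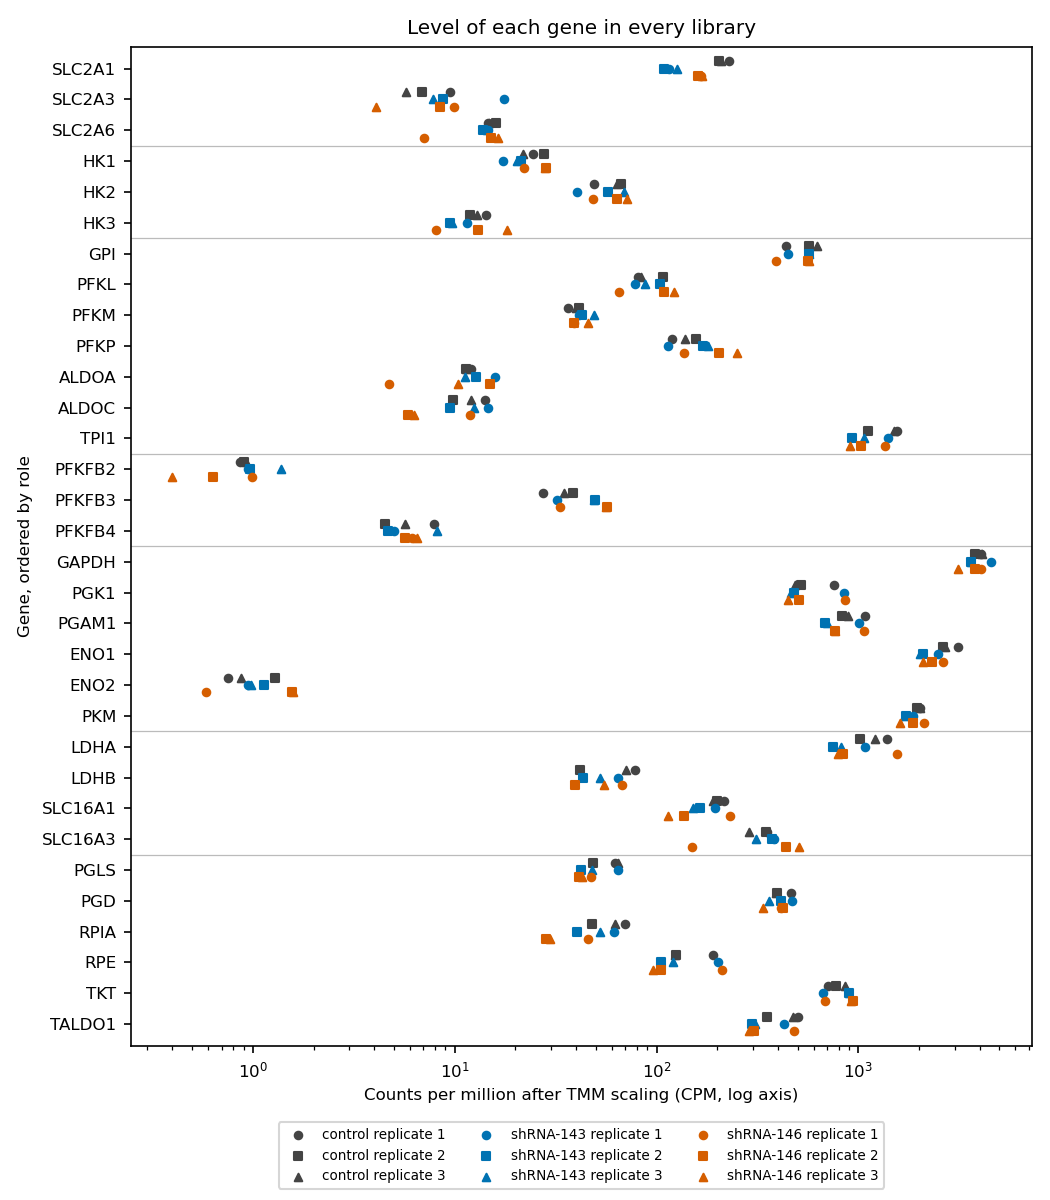
The level of each of the 32 genes in all 9 libraries is drawn on a log axis in CPM after TMM scaling, with genes ordered by role. GAPDH lies between 3126 and 4543 CPM and ENO2 between 0.584 and 1.59 CPM, and for most genes the 3 groups overlap.

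Among the glucose transporters, SLC2A1 was the 1 member of the 32 whose 6 knockdown libraries all lay below the control. SLC2A1 (ENSG00000117394, hg38 chromosome 1, 42925375 to 42959176, minus strand) stood at 229, 204 and 208 CPM in control replicates 1, 2 and 3. It stood at 116, 109 and 127 CPM with shRNA-143 and at 166, 160 and 169 CPM with shRNA-146. The 6 knockdown libraries lay below all 3 control libraries for 2.77% of tested genes. For SLC2A1, the 3 shRNA-143 libraries were below the 3 shRNA-146 libraries, a pattern whose share of tested genes was not counted. No member had all 6 above the control, against 3.08% of tested genes.

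The group means of SLC2A1 were 214 ± 13.6 CPM in control, 117 ± 8.87 CPM for shRNA-143 and 165 ± 4.54 CPM for shRNA-146 (SD, n = 3). Within a replicate number, SLC2A1 with shRNA-143 was 50.4%, 53.6% and 60.8% of its control, and with shRNA-146 it was 72.3%, 78.5% and 81.1%. The interval (95%) of the shRNA-143 fold change with the block was -1.13 to -0.60. With shRNA-146 the fold change was -0.37 ± 0.12, which did not pass (adjusted p = 0.0959). The mean over both shRNAs was -0.62 ± 0.10 with the block (adjusted p = 0.00936) and did not pass without it (adjusted p = 0.203). Between shRNA-146 and shRNA-143 the difference was 0.49 ± 0.12, which did not pass either (adjusted p = 0.0942). Leaving out 1 of the 9 libraries at a time, the shRNA-143 call of SLC2A1 was kept in 7 of 9 fits with the block and lost without control replicate 2 or shRNA-143 replicate 2 (highest adjusted p = 0.0819). The call in the mean was kept in 5 of 9 fits and lost when any 1 control replicate or shRNA-143 replicate 2 was left out.

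The other transporters were far less abundant than SLC2A1 and did not pass. SLC2A3, a high-affinity neuronal and leukocyte glucose transporter, stood at 9.48, 6.87 and 5.74 CPM in control, 17.5, 8.79 and 7.82 with shRNA-143, and 9.92, 8.45 and 4.06 with shRNA-146. Its shRNA-143 fold change was 0.57 ± 0.21 with the block (adjusted p = 0.153), and the groups overlapped. SLC2A3 has a near-identical neighbour, SLC2A14, and reads could be split between them, so both values are uncertain: SLC2A14 had -0.65 ± 0.19 with shRNA-143 (adjusted p = 0.0949). SLC2A6, a lysosomal transporter of macrophages, stood at 14.7 to 16.0 CPM in control and 13.7 to 14.6 with shRNA-143. With shRNA-146 it was 7.06 CPM in replicate 1 and 15.1 and 16.5 in the others. Of the summed per-length level of the 3 transporters, SLC2A1 made up 89.2% ± 0.651 in control, 80.9% ± 2.82 under shRNA-143 and 87.8% ± 2.56 under shRNA-146 (SD, n = 3).

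**Figure D3:**
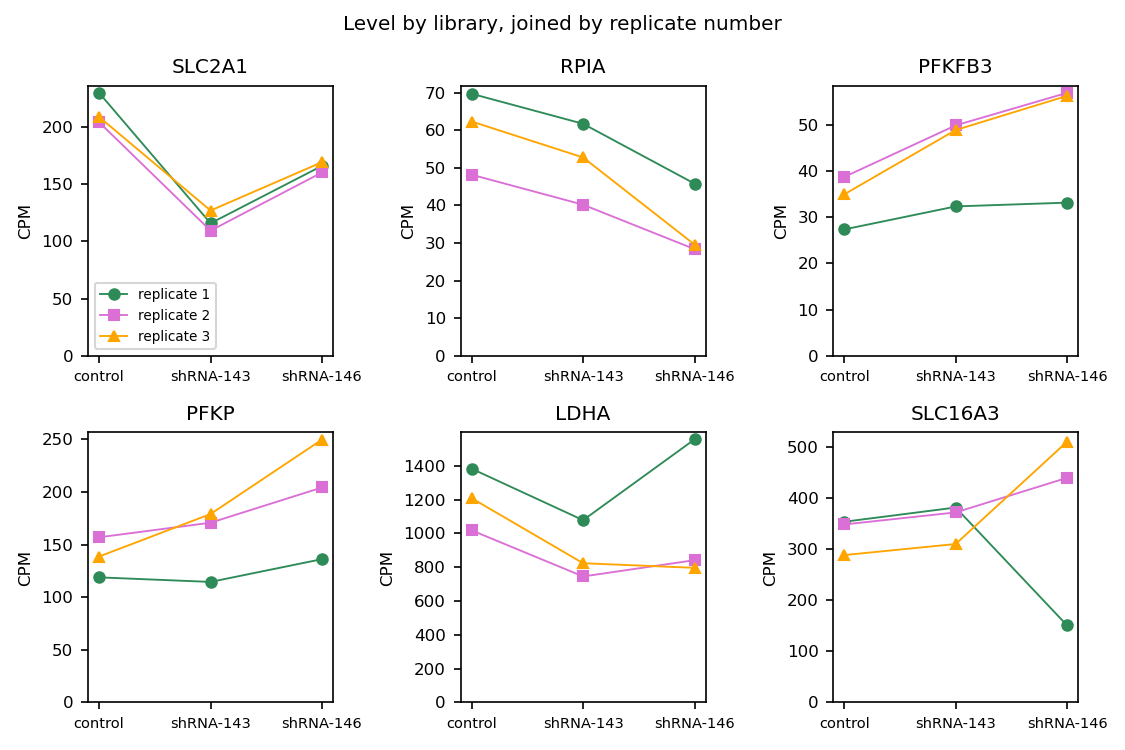
Levels in CPM of SLC2A1, RPIA, PFKFB3, PFKP, LDHA and SLC16A3 are shown by group, with lines joining libraries of the same replicate number. SLC2A1 is lower in both knockdown groups at each number, RPIA is lowest with shRNA-146 at each number, and SLC16A3 in shRNA-146 replicate 1 (151 CPM) lies far below the other libraries.

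The hexokinases, which commit glucose to the cell, showed no call with all 9 libraries. HK2, the inducible and here most abundant form, stood at 49.2, 66.4 and 63.9 CPM in control, 40.2, 57.4 and 69.2 with shRNA-143, and 48.5, 63.7 and 71.8 with shRNA-146. The ranges of HK2 overlapped throughout, and its fold changes with the block were -0.13 ± 0.13 and 0.03 ± 0.13. HK1, the constitutive form, lay between 21.8 and 27.7 CPM in control and between 17.3 and 21.4 with shRNA-143 (-0.32 ± 0.14, adjusted p = 0.232). HK3, a form of myeloid cells, ranged from 12.0 to 14.3 CPM in control, from 9.47 to 11.5 with shRNA-143 and from 8.10 to 18.2 with shRNA-146. The per-length share of HK2 among the hexokinases was 55.4% ± 4.97, 58.8% ± 6.82 and 55.7% ± 1.52 in control, shRNA-143 and shRNA-146, differences smaller than the spread.

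In upper glycolysis, PFKP, the platelet-type phosphofructokinase and the leading form here, had the largest positive values, with shRNA-146. PFKP stood at 119, 157 and 139 CPM in control, 115, 171 and 179 with shRNA-143, and 136, 204 and 250 with shRNA-146. Replicate 1 was the lowest PFKP library of each group, and the groups overlapped. The shRNA-146 fold change of PFKP was 0.47 ± 0.14 with the block, which did not pass (adjusted p = 0.0829). PFKL, the liver type, and PFKM, the muscle type, did not pass either, with fold changes with the block between -0.02 and 0.18. PFKP made up 64.7% ± 1.15 of the per-length phosphofructokinase level in control, 66.0% ± 3.60 under shRNA-143 and 70.6% ± 1.55 under shRNA-146. The lowest PFKP share with shRNA-146 (69.0%) was above the highest in control (65.9%), a description for which no test was made.

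GPI, which isomerises glucose 6-phosphate, and TPI1, which interconverts the triose phosphates, did not pass. TPI1 stood at 1552, 1114 and 1494 CPM in control, 1398, 927 and 1068 with shRNA-143, and 1361, 1033 and 911 with shRNA-146. TPI1 was lower than its same-numbered control in 6 of 6 knockdown libraries, with fold changes of -0.30 ± 0.15 (adjusted p with the block = 0.268) and -0.34 ± 0.15 (0.200). ALDOC, the brain-type aldolase, stood at 14.2, 9.86 and 12.1 CPM in control, 14.7, 9.43 and 12.4 with shRNA-143, and 11.9, 5.87 and 6.27 with shRNA-146. Its shRNA-146 fold change was -0.64 ± 0.18 with the block (adjusted p = 0.0663), and with shRNA-143 it was 0.01 ± 0.17. ALDOA, the muscle-type aldolase, averaged 11.6 CPM in control, but 42.3% of its exon bases are shared on the same strand with another annotated gene (AC093512.2), so its count is uncertain, and what this sharing does to it was not tested.

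The bifunctional PFKFB enzymes set the level of fructose 2,6-bisphosphate, the activator of phosphofructokinase. PFKFB3 (ENSG00000170525, hg38 chromosome 10, 6144934 to 6254644, plus strand), the form with the strongest kinase activity, stood at 27.3, 38.7 and 34.9 CPM in control. It stood at 32.3, 49.8 and 48.8 CPM with shRNA-143 and at 33.1, 56.9 and 56.2 CPM with shRNA-146. PFKFB3 was the 1 member higher than its same-numbered control in 6 of 6 knockdown libraries, as 12.4% of tested genes were. The group means were 33.6 ± 5.78, 43.6 ± 9.83 and 48.7 ± 13.5 CPM (SD, n = 3), and the groups overlapped. Its fold changes with the block were 0.36 ± 0.13 (adjusted p = 0.158) and 0.51 ± 0.13 (adjusted p = 0.0564), and 0.43 ± 0.12 in the mean (adjusted p = 0.0550), so PFKFB3 did not pass. PFKFB4 lay between 4.54 and 8.21 CPM in all libraries and PFKFB2 between 0.397 and 1.38. PFKFB3 made up 83.2% ± 6.09, 86.7% ± 3.28 and 87.6% ± 3.91 of the per-length level of the 3 enzymes in control, shRNA-143 and shRNA-146 (SD, n = 3). These differences were smaller than the spread in control, from 76.5% to 88.4%.

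**Figure D4:**
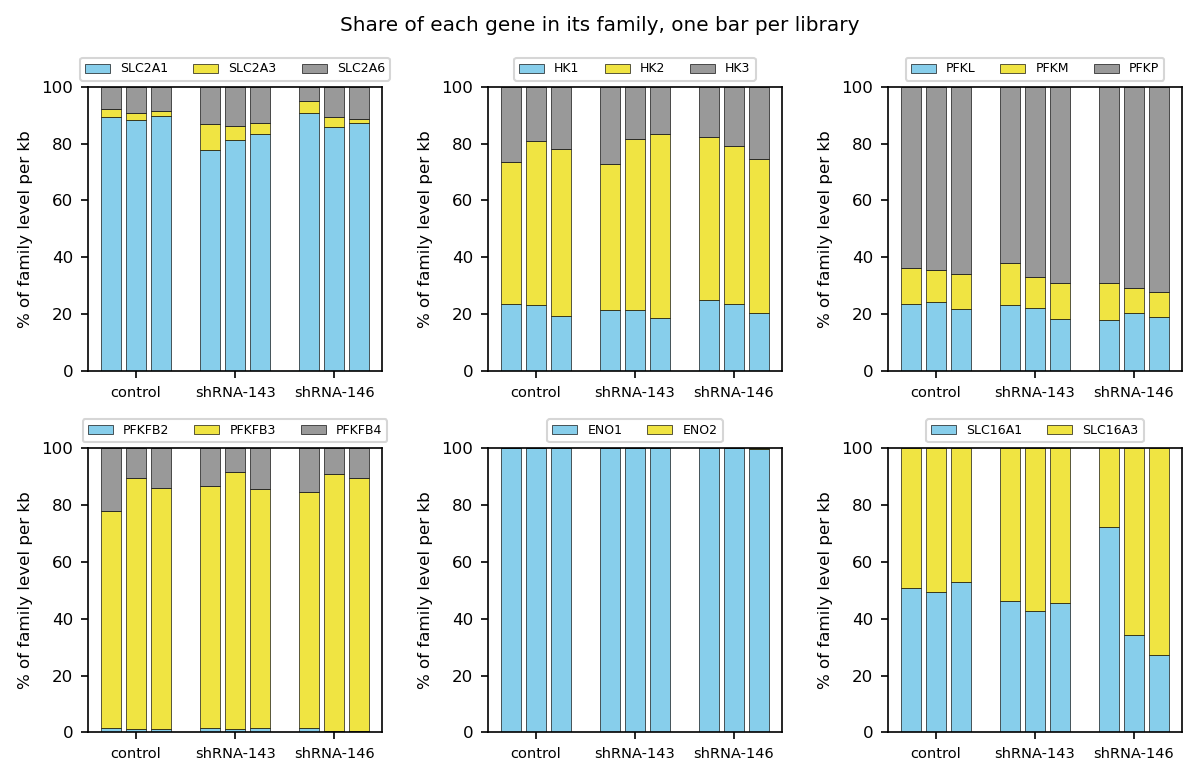
Stacked bars give, for each library (replicates 1 to 3 from left to right in a group), the percentage of a family's summed per-length level that each of its members contributes. SLC2A1 makes up a smaller part of the transporters with shRNA-143 than in control, and SLC16A1 makes up 72.3% of its pair in shRNA-146 replicate 1 against 34.4% and 27.4% in replicates 2 and 3.

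Lower glycolysis held the most abundant members, and none passed. GAPDH, which makes NADH in the first oxidising step, stood at 4040, 3805 and 4083 CPM in control, 4543, 3635 and 3615 with shRNA-143, and 4043, 3785 and 3126 with shRNA-146. Its fold change in the mean of both shRNAs was -0.08 ± 0.12 with the block (95% interval -0.35 to 0.19). ENO1, the main enolase, stood at 3112, 2623 and 2692 CPM in control, 2491, 2100 and 2025 with shRNA-143, and 2641, 2326 and 2081 with shRNA-146. ENO1 was lower than its same-numbered control in 6 of 6 knockdown libraries, and so was the mutase PGAM1. The fold change of ENO1 in the mean was -0.31 ± 0.11 with the block (adjusted p = 0.115), and that of PGAM1 was -0.18 ± 0.11. PGK1, the first ATP-producing kinase of the pathway, ranged from 485 to 759 CPM in control, from 462 to 848 with shRNA-143 and from 448 to 862 with shRNA-146. PKM, the pyruvate kinase, averaged 2002 ± 40.0, 1765 ± 90.2 and 1862 ± 254 CPM in the same order. ENO2, the neuronal enolase, was at 0.584 to 1.59 CPM over all libraries.

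Of the lactate genes, LDHA, LDHB and SLC16A1 had negative fold changes with both shRNAs in the fit with the block, and none of the 4 passed by edgeR with all 9 libraries. LDHA, which reduces pyruvate to lactate, stood at 1383, 1018 and 1208 CPM in control, 1078, 745 and 824 with shRNA-143, and 1556, 842 and 796 with shRNA-146. Replicate 1 was the highest LDHA library of every group, and the groups overlapped. LDHA had fold changes with the block of -0.46 ± 0.16 (adjusted p = 0.136) and -0.23 ± 0.16. SLC16A1 (MCT1), a transporter of lactate and pyruvate, stood at 216, 200 and 191 CPM in control, 194, 165 and 152 with shRNA-143, and 232, 136 and 114 with shRNA-146. SLC16A3 (MCT4), the exporter of highly glycolytic cells, stood at 354, 348 and 288 CPM in control, 381, 372 and 310 with shRNA-143, and 151, 440 and 510 with shRNA-146. In shRNA-146 replicate 1, SLC16A3 was thus 42.6% of its same-numbered control, while in replicates 2 and 3 it was 126% and 177%. LDHB, the form that favours pyruvate, averaged 63.7, 53.4 and 54.0 CPM (-0.22 ± 0.13 with each shRNA), but shares 33.4% of its exon bases with another annotated gene on the same strand, so its count is uncertain.

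Without shRNA-146 replicate 1, the fit with the block called more members. With shRNA-143, which does not use this library directly, LDHA then passed at -0.46 (adjusted p = 0.0326) and PFKFB3 at 0.36 (adjusted p = 0.0368), beside SLC2A1. With shRNA-146 the calls of that fit were RPIA (-0.90), ALDOC (-0.84), SLC16A1 (-0.63), SLC16A3 (0.59), PFKFB3 (0.59) and PFKP (0.56). In the mean of both it called LDHA, TALDO1 (-0.41, adjusted p = 0.0292), SLC16A1, PFKP, SLC2A1, RPIA, PFKFB3 and ALDOC. Between shRNA-146 and shRNA-143 it called SLC2A1 (0.51), RPIA (-0.68), HK3 (0.68) and ALDOC (-0.85). In all, 3 of 32 members were called with shRNA-143, 6 with shRNA-146, 8 in the mean of both and 4 between the shRNAs. Over the 15333 genes tested in that fit, the calls rose to 2099, 1745, 3075 and 344. Without control replicate 2 instead, the fit with the block called 0 members in each comparison.

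In the pentose phosphate pathway, RPIA was the 1 member called by edgeR with the block over all 9 libraries. Fold changes of 5 of the 6 members were negative with each shRNA in that fit. RPIA (ENSG00000153574, hg38 chromosome 2, 88691644 to 88750935, plus strand) stood at 69.7, 48.2 and 62.3 CPM in control, 61.7, 40.2 and 52.7 with shRNA-143, and 45.8, 28.4 and 29.6 with shRNA-146. All 3 shRNA-146 libraries of RPIA were below all 3 control libraries, as were those of SLC2A1 and PGLS. The 3 shRNA-143 libraries were below all 3 control libraries for SLC2A1, SLC2A6, HK1, HK3, ENO1 and PKM, and above them for PFKM. The shares of tested genes with these patterns were not counted, so whether they are unusual was not tested. With shRNA-143, RPIA overlapped the control. Means were 60.0 ± 10.9, 51.5 ± 10.8 and 34.6 ± 9.72 CPM (SD, n = 3).

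Within a replicate number, RPIA with shRNA-146 was 65.7%, 58.9% and 47.5% of its control. With shRNA-143 its fold change was -0.23 ± 0.14 with the block (adjusted p = 0.375), and in the mean of both shRNAs -0.52 ± 0.12 (adjusted p = 0.0308, against 0.526 without the block). The difference between shRNA-146 and shRNA-143 was -0.58 ± 0.14 and did not pass (adjusted p = 0.0808). With the block, the shRNA-146 call of RPIA was kept in 7 of 9 fits that left out 1 library and lost without control replicate 2 or 3 (highest adjusted p = 0.0834), and the call in the mean was kept in 2 of 9, those without shRNA-146 replicate 1 or 3. With a correction for gene length beside the block, the shRNA-146 fold change of RPIA was -0.59 ± 0.15 and no longer passed (adjusted p = 0.0522), nor did RPIA in the mean (-0.32 ± 0.12, adjusted p = 0.163). In the authors' deposited table, RPIA with shRNA-146 had a log2 fold change of -0.79 and an adjusted p of 0.460.

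Because RPIA was a called gene, the stretch before its first annotated exon is shown, within the 250 bases before its RefSeq start (GRCh38.p14, chr2:88691423-88691643, plus strand, 5′ to 3′). Capitals mark TTTCC, the reverse complement of the NFAT core letters GGAAA, and CACGC, the reverse complement of the hypoxia-response core letters GCGTG.
RPIA: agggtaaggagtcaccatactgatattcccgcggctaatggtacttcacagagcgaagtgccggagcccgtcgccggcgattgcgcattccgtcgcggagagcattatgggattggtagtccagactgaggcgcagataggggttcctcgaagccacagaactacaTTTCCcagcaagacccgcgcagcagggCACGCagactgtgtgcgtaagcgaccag
A further TTTCC match of the window lies nearer the start, beyond the stretch printed. Such matches are common: on either strand, GGAAA occurred in 56.0% of 27305 RefSeq promoter windows of 250 bases and in 12 of the 29 members with an entry. ACGTG or GCGTG occurred in 43.1% of them and in 15 of the 29, and CACGTG, the E-box letters that contain ACGTG, in 6.49% and in 3 of the 29. The window of SLC2A1 lies wholly within the annotated gene in GENCODE 29, and it held none of these letters. That says only that they are not in those 250 bases. A match is a description of the letters and not a binding site.

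The other pentose phosphate members did not pass by edgeR with all 9 libraries. TALDO1, the transaldolase, stood at 503, 351 and 477 CPM in control, 428, 298 and 309 with shRNA-143, and 481, 303 and 288 with shRNA-146. TALDO1 was lower than its same-numbered control in 6 of 6 libraries (mean -0.36 ± 0.12 with the block, adjusted p = 0.109). The 6 members lower in 6 of 6 were SLC2A1, TPI1, PGAM1, ENO1, RPIA and TALDO1, against 13.1% of tested genes. TKT, the transketolase, averaged 781, 823 and 845 CPM in control, shRNA-143 and shRNA-146, with fold changes of 0.06 ± 0.13 and 0.10 ± 0.13. PGLS, the lactonase of the oxidative arm, ranged from 48.3 to 64.2 CPM in control and from 41.3 to 47.4 with shRNA-146 (-0.40 ± 0.14 with the block, adjusted p = 0.122). PGD, an NADPH-producing enzyme, averaged 418, 415 and 391 CPM, and RPE, the epimerase, ranged from 96.1 to 212 CPM over all libraries. Of the exon bases of RPE, 23.8% lie opposite KANSL1L, and without strand their reads cannot be told apart.

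The replicate number moved many members as much as the shRNAs did. Replicate 1 was the highest library in all 3 groups for 13 of 32 members (40.6%), against 25.9% of tested genes, and the lowest in all 3 for 8 of 32 (25.0%), against 28.4%. The 13 were SLC2A3, ALDOC, TPI1, PGK1, PGAM1, ENO1, PKM, LDHA, LDHB, SLC16A1, RPIA, RPE and TALDO1. The 8 were HK2, GPI, PFKL, PFKM, PFKP, PFKFB3, ENO2 and TKT. SLC2A1 was in neither list.

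These differences moved with gene length. Across the 32 members, the log2 difference of replicate 1 from the other replicates had a Pearson correlation of -0.417 (Spearman -0.415) with log2 gene length, and across the 14645 tested genes with a count in every library -0.249 (Spearman -0.273). The fold change in the mean of both shRNAs with the block correlated with length at 0.458 (Spearman 0.502) across the 32 members and at 0.306 (Spearman 0.359) across all genes. Genes share libraries and are not independent, so no p is given, and the part of length in the fold changes was tested only by the gene-length correction beside the block, run over all genes. With it, 22 of 32 fold changes with shRNA-143, 26 with shRNA-146 and 25 in the mean were negative, with medians of -0.07, -0.10 and -0.11. SLC2A1 with shRNA-143 passed with that correction (adjusted p = 0.00370) and in the mean (0.00801), and RPIA in neither of its calls.

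**Figure D5:**
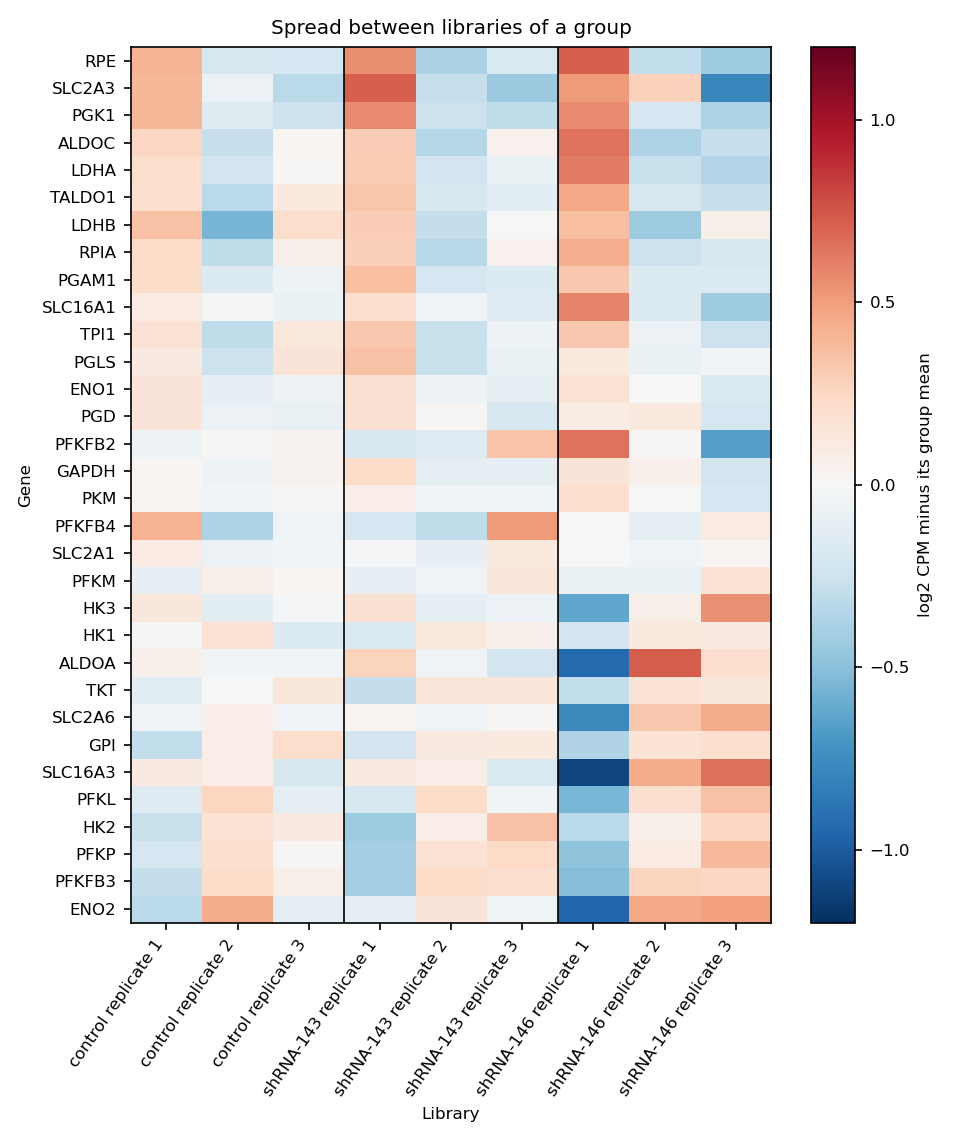
Colours give log2 CPM minus the mean of its own group for each of the 32 genes (vertical) in the 9 libraries (horizontal), with lines between the groups. Replicate 1 is above its group mean for genes such as TPI1 and LDHA and below it for genes such as PFKP and PFKFB3 in every group, and shRNA-146 replicate 1 deviates most for SLC16A3.

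Other genes of the pathway were read from lists of related genes. Of 39 further genes for glucose transport, glycolysis and the pentose phosphate pathway, 25 were tested. In that list 0 passed with either shRNA, and in the mean of both 1 passed with the block: SLC2A13, a myo-inositol transporter of the same family, rose by 0.56 ± 0.13 (adjusted p = 0.0339). Of the 25, 5 had an unadjusted p under 0.05 in the fit with the block with shRNA-143 and 2 with shRNA-146. Of all genes, 20.7% and 23.5% did. Medians were -0.06 and 0.03, against 0.00 and 0.02 over all genes. Of 14 genes for pyruvate entry into mitochondria, all tested, 0 passed in edgeR with the block, and the medians were -0.17 and -0.09. An unadjusted p under 0.05 was held by 1 gene with shRNA-143 and 2 genes with shRNA-146, against the same shares of all genes.

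Among 14 tested regulators of the response to low oxygen and to glucose, 1 passed with shRNA-143 and 2 with shRNA-146 in the fit with the block, where 1.6% of all genes were called higher and 1.57% lower with shRNA-143, and 2.46% and 1.96% with shRNA-146. At an unadjusted p under 0.05 that fit held 4 and 7 of the 14, against 20.7% and 23.5% of all genes. The medians were 0.30 and 0.29, against 0.00 and 0.02 over all genes. EPAS1, which encodes HIF-2 alpha, averaged 3.70 CPM in control, 6.54 under shRNA-143 and 7.08 under shRNA-146, and rose with both shRNAs in the block fit (0.80 ± 0.17, adjusted p = 0.0355, and 0.91 ± 0.17, adjusted p = 0.0199). ARNT, the partner of the HIF alpha subunits, fell with shRNA-146 (-0.66 ± 0.13, adjusted p = 0.0238), and differed between the shRNAs (-0.74 ± 0.13, adjusted p = 0.0264). ARNT stood at 65.5, 80.3 and 78.0 CPM in control, 66.4, 86.4 and 83.0 with shRNA-143, and 47.2, 49.5 and 43.9 with shRNA-146. All 3 shRNA-146 libraries of ARNT were below the other 6, a pattern whose share of tested genes was not counted. Of 13 tested hypoxia-inducible genes outside glycolysis, 1 passed, AK4, an adenylate kinase of mitochondria, with shRNA-146 (-0.80 ± 0.18, adjusted p = 0.0364). Of 11 glycogen genes, 0 passed against control and 1 between the shRNAs, PPP1R3D, a glycogen-targeting phosphatase subunit (0.80 ± 0.16, adjusted p = 0.0423). Without shRNA-146 replicate 1 each of these calls was kept in the fit with the block, and more list genes passed. In the order of the lists above, 26, 14, 14, 13 and 11 genes were tested in that fit. Of these, 5 (SLC2A14 among them), 1, 2, 2 and 4 passed with shRNA-143, and 1, 2, 3, 3 and 1 with shRNA-146. Calls over all 15333 genes tested in it rose as well, to 2099 and 1745. Leaving out 1 library at a time, a call was kept in 1 (PPP1R3D) to 4 (EPAS1 in the mean) of 9 fits, and each was lost without control replicate 2 and without shRNA-143 replicate 2 (highest adjusted p = 0.251). Without the block, edgeR called 0 genes of these 5 lists in any comparison over all 9 libraries.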

How the data were processed

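RNA from 9 THP-1 libraries was measured by RNA-seq. The deposited table holds raw counts per gene, without normalization, per the file headers. Tools named in the submitters' processing notes, with no roles, are featureCounts, STAR 2.5, DESeq2 and fastp, with build hg38. The strand setting and the handling of gene overlaps were not given in the sources used here. The authors' deposited comparison tables also hold normalized signal values, counts, FPKM, log2 fold changes, p-values and adjusted p-values. From those tables only the log2 fold changes, adjusted p-values, gene names, lengths and coordinates were used, and coordinates equal those of GENCODE 29.

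The counts were analysed in R 4.3.3 with edgeR 4.0.16 (filterByExpr, TMM scaling, robust quasi-likelihood test, 1 fit over all 9 libraries) and Benjamini-Hochberg adjustment over all 14975 tested genes at 0.05. SEs were taken from the F statistic. The alternative fit has the replicate number as a block. What a number marks is not in the labels, but every same-numbered pair correlated above 0.1 (0.252 to 0.758) and 9 of 9 libraries matched best at their own number. For the replicate 3 knockdown libraries that best match was each other (0.558), and control replicate 2 matched them better than control replicate 3 did. Residual degrees of freedom were 6 without the block and 4 with it. Other alternatives were DESeq2 1.42.0, limma 3.58.1 (voom), other scalings, no filter, a gene-length correction, replicates 2 and 3 only, and leaving out each library. No libraries were duplicates (chi-square per degree of freedom 20.3 to 389).

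The 32 members and the gene lists were chosen with earlier results of these data known. All members are described by role. Per-library values are given for members past the threshold in either fit and for the leading form of each family, and list genes are named where they passed. CPM are after TMM scaling, and levels between genes are compared per kilobase. Promoters are RefSeq's (GRCh38.p14). The edgeR fits were also run on simulated counts that had replicate-number means built in. Their spread was taken from a fit with the block, and the planted changes were larger than those of the members. They therefore do not show how either fit performs on changes of the size reported here.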

Additional observations from a re-analysis of the deposited data

How the results depend on the processing

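Values follow the order shRNA-143 against control, shRNA-146 against control, the mean of both, and shRNA-146 against shRNA-143. Without the replicate block, edgeR called 7, 5, 5 and 7 genes and 0 members in each. With the replicate block it called 474, 662, 859 and 179 genes and 1, 1, 2 and 0 members. With the block, library-size scaling gave 414, 835, 858 and 186 genes and 1, 2, 3 and 0 members, DESeq2 size factors gave 485, 680, 859 and 177 genes and 1, 1, 2 and 0 members, and the gene-length correction gave 415, 491, 636 and 204 genes and 1, 0, 1 and 0 members. DESeq2 called 151, 162, 203 and 89 genes and 1, 0, 1 and 0 members without the block, and 1001, 1400, 1642 and 374 genes and 1, 4, 3 and 3 members with it. limma-voom with the block called 458, 681, 783 and 185 genes and 1, 1, 2 and 0 members. Replicates 2 and 3 alone, without the block, gave 589, 951, 1525 and 160 genes and 1, 5, 5 and 0 members. Without the block, library-size scaling called 16 genes with shRNA-143 and 2 with shRNA-146, DESeq2 size factors called 3 with shRNA-146, and fitting only the groups compared called 1, 0 and 0 genes in the first, second and last comparison (for the mean it is the same fit). Leaving out each library without the block gave 1 to 28, 0 to 3, 0 to 5 and 0 to 8 genes and 0 members, and with the block 55 to 2099, 27 to 1745, 14 to 3075 and 31 to 344 genes and 0 to 3, 0 to 6, 0 to 8 and 0 to 4 members, the highest counts each without shRNA-146 replicate 1. The cause of these differences was not tested. Of 60 family shares, 39 moved by over 1 SD when counts were not divided by gene length. With 3 libraries a group, SEs of the members' log2 fold changes in the mean ran from 0.10 to 0.32, so small differences were not detectable.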
